A study of Arabidopsis thaliana with 6 samples.

Results

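The genes described here are 32 early auxin genes of Arabidopsis thaliana, 25 Aux/IAA repressors (IAA1 to IAA14, IAA16 to IAA20 and IAA26 to IAA31) and 7 GH3 amido synthetases (GH3.1 to GH3.6 and GH3.17). They were chosen by locus code, and all 32 had a row among the 27978 rows of the deposited count table. RNA-seq libraries came from wild-type Columbia seedlings in 3 groups of 2, treated with 1 nM of the natural auxin indole-3-acetic acid (IAA), with 10 nM melatonin (MT), or with 0.1% ethanol alone as control, ethanol being the solvent of both stocks. In all groups seedlings 4 days old were moved from plain Murashige and Skoog medium with sucrose to the test plates, and the sample titles give 7 days. The column names of the control libraries say 72 h instead, so the age of the control plants is uncertain in every comparison against control, and the series' own design text names rosette leaves where the labels name seedlings.

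Aux/IAA proteins are short-lived repressors that sit on auxin response factors (ARFs) and recruit TOPLESS co-repressors. Auxin binds between a TIR1/AFB receptor and a degron in the Aux/IAA protein, which is then degraded, and the ARF is released. Many Aux/IAA and GH3 genes are themselves ARF targets, so their transcripts are a widely used readout of auxin response. GH3 enzymes of this group join IAA to amino acids, which stores it or marks it for breakdown, and together with the repressors they form negative feedback on auxin.

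None of the 32 genes passed the test in any comparison. Of the 31 with enough reads to test, 0 were called for IAA against control, 0 for MT against control and 0 for MT against IAA (edgeR's quasi-likelihood test, Benjamini-Hochberg adjusted p under 0.05). The same test called 0.701%, 1.89% and 0.0188% of all 21267 genes tested. These shares are so low that 0 calls among 31 members cannot be told apart from them. At an unadjusted p under 0.05 lay 1 member higher and 4 lower with IAA than in control, where 6.71% and 4.27% of all genes did (11% together). For MT against control there were 1 higher and 5 lower, against 8.67% and 4.58% of all genes (13.2% together). For MT against IAA there were 2 higher and 0 lower, against 5.98% and 4.53% (10.5% together). In both comparisons with control most of these members were lower, whereas over all genes more were higher. The 2 comparisons are not independent, since they share the same control libraries, and GH3.3, GH3.5 and GH3.6 were among the lower members in each. Asking whether the 3 groups differed at all gave 0 calls and 7 members at an unadjusted p under 0.05, against 1.33% and 13.6% of all genes. DESeq2 called GH3.6 for IAA against control, GH3.6 and GH3.5 for MT against control, and 0 members for MT against IAA.

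Library totals ran from 40087221 to 65558371 counts, so a count of 3 corresponded to 0.0463 to 0.0748 CPM (counts scaled to a common library size). Markers of root and of green shoot were read in every library. The 9 root endodermis markers summed to 33.8 and 35.7 CPM with IAA, 72.8 and 41.5 CPM with MT, and 20.1 and 28.3 CPM in control. Against control, 8 of the 9 had log2 fold changes above 0 with IAA (median 0.52) and 9 of 9 with MT (median 1.28), of which 0 and 2 passed edgeR's test. The 7 root hair markers summed to 15.9 and 21.9 CPM with IAA, 31.3 and 15.6 CPM with MT, and 5.73 and 12.01 CPM in control. Here 6 of 7 were above 0 with IAA (median log2 fold change 1.09) and 7 of 7 with MT (median 1.35), of which 0 and 1 passed. Of all genes tested, 46.4% lay below 0 with IAA and 50.7% with MT. Root markers were thus higher, as sums, in all 4 treated libraries than in both controls, and their part in the comparisons with control was not tested. Green shoot markers, 9 in all, summed to 54710 to 59270 CPM, and 0 passed the test. No marker of the 3 lists was at 0 in any library. MT replicate 1 stood apart, with the highest sums of both root lists and 0.285% of its counts on plastid genes, against 0.0196% to 0.0244% in the other libraries.

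The promoters of these genes carry more exact matches to the auxin response element than promoters in general. In the window from 250 bases before to 50 bases after each gene's annotated start, TGTCTC, the classical element, was found on either strand in 13 of 32 members (40.6%), against 3780 of 26704 protein-coding genes in the table (14.2%). TGTCGG, a form that ARFs bind more tightly in vitro, was in 6 of 32 (18.8%) against 5.12%. The shorter core TGTCNN, which includes both, was in 28 of 32 (87.5%) against 81.3%. These are letter matches in a short window, and elements further out were not searched.

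Promoters are printed below from RefSeq's TAIR10.1 assembly for 2 Aux/IAA genes with several matches and for 2 GH3 genes that were lower with both treatments, with TGTCTC and TGTCGG (or their reverse complements) in capitals. IAA19 lies at chr3:5263751-5264050 on the plus strand, IAA5 at chr1:5366448-5366747 on the minus strand, GH3.3 at chr2:9866513-9866812 on the minus strand and GH3.5 at chr4:13653329-13653628 on the plus strand. Each sequence is given 5′ to 3′ on the gene's own strand.
IAA19: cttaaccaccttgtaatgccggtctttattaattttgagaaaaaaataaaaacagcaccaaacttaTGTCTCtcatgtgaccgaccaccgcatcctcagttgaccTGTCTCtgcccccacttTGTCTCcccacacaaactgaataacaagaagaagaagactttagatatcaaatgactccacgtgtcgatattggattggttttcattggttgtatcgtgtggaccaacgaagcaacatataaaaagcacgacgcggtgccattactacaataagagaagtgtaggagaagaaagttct
IAA5: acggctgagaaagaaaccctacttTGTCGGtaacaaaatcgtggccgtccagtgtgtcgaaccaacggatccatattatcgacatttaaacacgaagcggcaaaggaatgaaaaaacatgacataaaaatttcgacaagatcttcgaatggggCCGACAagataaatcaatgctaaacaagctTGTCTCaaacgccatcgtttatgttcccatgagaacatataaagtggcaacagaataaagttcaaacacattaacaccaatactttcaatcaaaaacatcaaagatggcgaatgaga
GH3.3: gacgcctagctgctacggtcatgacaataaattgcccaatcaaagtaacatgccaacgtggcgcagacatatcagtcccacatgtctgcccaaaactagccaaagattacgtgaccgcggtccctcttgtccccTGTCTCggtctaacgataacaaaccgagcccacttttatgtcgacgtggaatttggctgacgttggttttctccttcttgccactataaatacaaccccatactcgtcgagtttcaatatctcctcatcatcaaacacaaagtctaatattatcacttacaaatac
GH3.5: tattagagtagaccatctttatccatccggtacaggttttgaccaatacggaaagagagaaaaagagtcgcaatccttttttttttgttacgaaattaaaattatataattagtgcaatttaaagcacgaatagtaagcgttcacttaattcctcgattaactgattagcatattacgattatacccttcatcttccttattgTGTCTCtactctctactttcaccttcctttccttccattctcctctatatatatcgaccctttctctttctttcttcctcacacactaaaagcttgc
IAA19 held 3 copies of TGTCTC, beginning 184, 145 and 128 bases before the start. IAA5 held TGTCTC at 67 bases before it and the TGTCGG form at 226 and, reversed, at 97. In GH3.3 the match began 116 bases before the start and in GH3.5 47 bases before it. GH3.6, GH3.17 and GH3.4 had neither form in the window. Among the 13 tested genes with TGTCTC the median log2 fold change was 0.05 for IAA and 0.02 for MT, both against control. Among the 18 without it the medians were -0.12 and -0.09. IAA6, IAA20, IAA31 and GH3.1, with mean counts under 30, were all in the set with TGTCTC. Without these genes, the middle log2 fold change of the set with TGTCTC was that of IAA1 for IAA (-0.08) and that of IAA19 for MT (0.006). For IAA it then lay close to the -0.12 of the set without the element, so most of that contrast rested on genes near the floor.

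**Figure D1:**
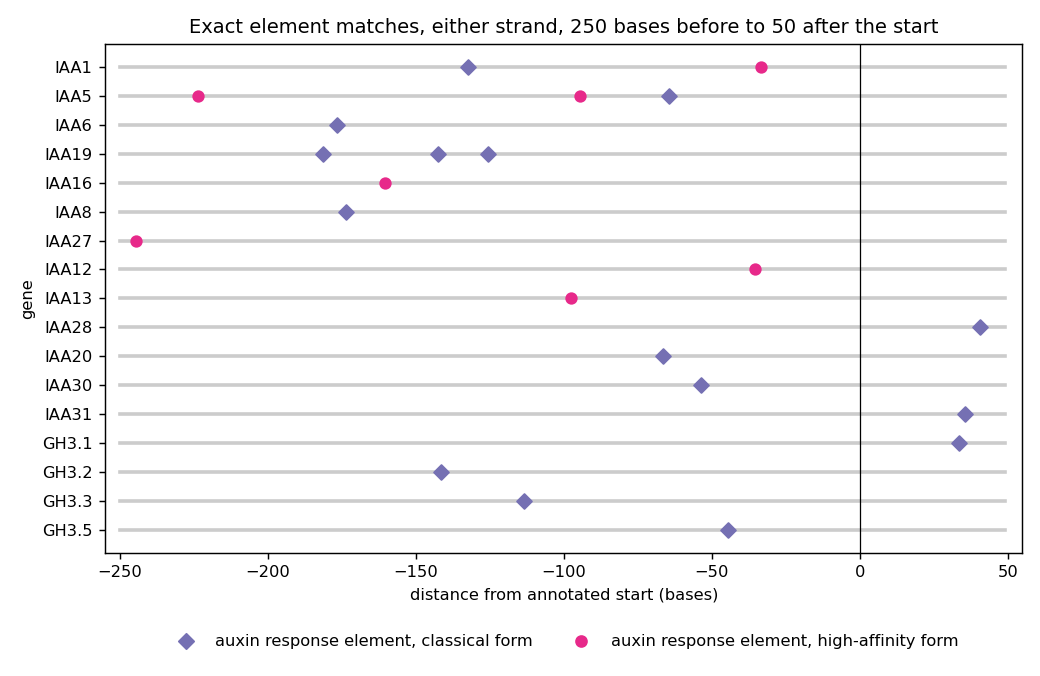
Position of exact matches to the 2 forms of the auxin response element in the 17 genes that hold one, as distance in bases from the annotated start (horizontal axis), 1 gene a line. Diamonds are the classical TGTCTC form and circles the TGTCGG form, on either strand. IAA5 and IAA19 hold 3 matches each, most others 1.

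Levels differed far more between genes than between treatments. Per kb of exon, the Aux/IAA gene with the highest mean was IAA9 (AT5G65670), at 103 to 118.5 CPM per kb over the 6 libraries. IAA16 (AT3G04730) ranged over 96.0 to 109, IAA8 (AT2G22670) over 90.9 to 103, IAA7 (AT3G23050) over 73.2 to 106 and IAA2 (AT3G23030) over 71.1 to 90.5 CPM per kb. The ranges of neighbours among these 5 overlapped, and all lay above that of IAA4 (AT5G43700), at 37.9 to 46.7 CPM per kb. From IAA26 to IAA19 a chain of 10 genes with overlapping ranges ran from 24.0 down to 6.74 CPM per kb. At the low end IAA30 was at 0.694 to 1.58, IAA6 at 0 to 0.496, IAA20 at 0.0410 to 0.310 and IAA31 at 0 to 0.476 CPM per kb.

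The GH3 genes formed a clear order in which the ranges of neighbours did not overlap. GH3.6 (AT5G54510) was at 45.8 to 80.4 CPM per kb, GH3.5 (AT4G27260) at 32.4 to 44.7 and GH3.17 (AT1G28130) at 15.4 to 22.9. Below them came GH3.3 (AT2G23170) at 3.38 to 6.23, GH3.2 (AT4G37390) at 1.16 to 1.86 and GH3.1 (AT2G14960) at 0.0171 to 0.290 CPM per kb. GH3.4 (AT1G59500) had 0 counts in all 6 libraries, which allows up to 0.0748 CPM in the shallowest one, and it was the 1 member removed by the filter on low counts. GH3.2, GH3.3 and GH3.4 share identical stretches, and 35 of the 2121 windows of 50 bases in GH3.2 and 7 of 2069 in GH3.3 also occur in another member, so a small part of their reads cannot be assigned with certainty.

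**Figure D2:**
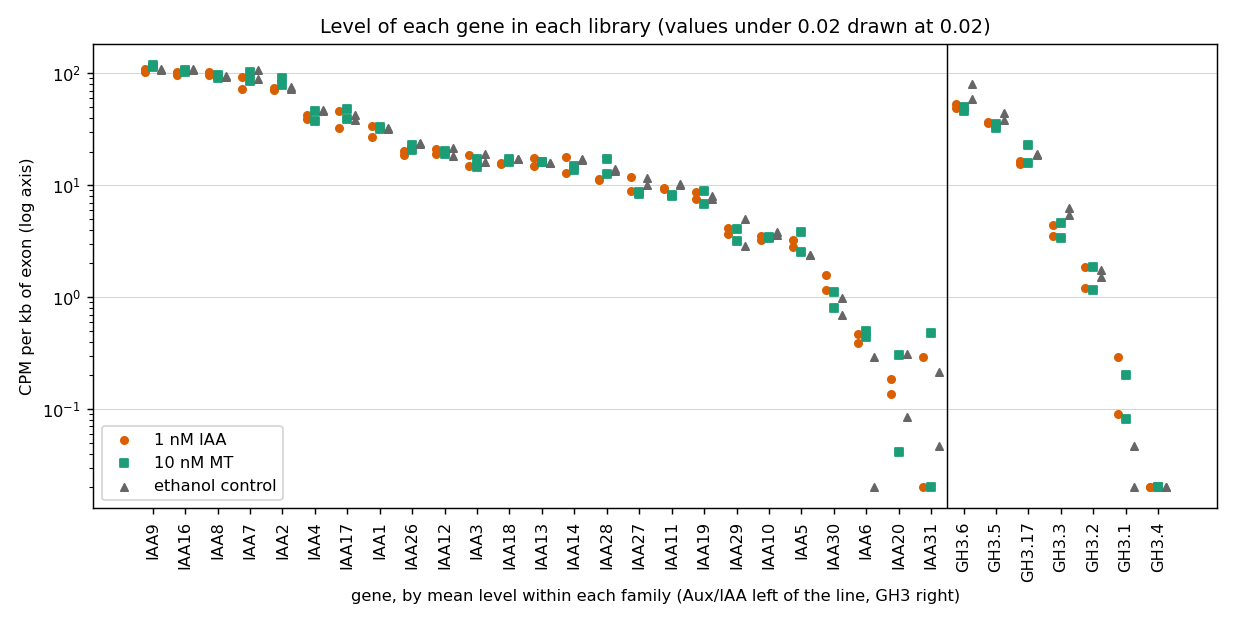
Level of each of the 32 genes in each of the 6 libraries, in CPM per kb of exon on a log axis, with genes ordered by mean level within the Aux/IAA family (left of the line) and the GH3 family (right). Circles are 1 nM IAA, squares 10 nM MT and triangles ethanol control, and values under 0.02 are drawn at 0.02. The order of the genes spans about the same levels in every group, from 103 to 118.5 for IAA9 down to 0 for GH3.4.

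GH3.6, GH3.5 and GH3.3 had lower levels with both treatments than in control. Shares of all genes with every treated library below both controls, or above both, were not counted, here or for the genes that follow. For each treatment alone, 20.2% of all genes tested with IAA and 22.2% with MT lay below both controls in both libraries. GH3.6, also called DFL1, gives dwarf plants in the light when overexpressed and conjugates IAA to amino acids. It was at 124 and 114 CPM with IAA, 106 and 116 CPM with MT, and 187 and 136 CPM in control. All 4 treated libraries lay below both control libraries, and control replicate 1 was the highest by far. The log2 fold change was -0.43 ± 0.13 (SE) for IAA (95% interval -0.73 to -0.14, adjusted p = 0.256) and -0.54 ± 0.13 for MT (-0.84 to -0.24, adjusted p = 0.0993), in edgeR's quasi-likelihood test with n = 2 per group. Without control replicate 1 the changes were -0.20 and -0.30, and without control replicate 2 they were -0.66 and -0.76 and passed (edgeR adjusted p = 0.0323 and 0.0102). DESeq2 called the gene in both comparisons (adjusted p = 0.0419 and 0.00297), and edgeR with no filter on low counts called it for MT (0.031). Whether the samples were seedlings, as labelled, or rosette leaves, fewer cells of a type and less RNA per cell cannot be told apart, for this gene and the others.

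GH3.5 (WES1), which also acts on other acidic hormones, was at 86.5 and 85.4 CPM with IAA, 76.4 and 82.7 CPM with MT, and 105 and 90.7 CPM in control. Both treated groups lay below the control range, those with MT furthest. The log2 fold change was -0.19 ± 0.08 (SE) for IAA (adjusted p = 0.449) and -0.30 ± 0.08 for MT (adjusted p = 0.147) in edgeR's test, and DESeq2 put the MT value just under the threshold (0.0496). Without control replicate 1 the changes were -0.085 and -0.20, and without control replicate 2 that for IAA was -0.31. GH3.3, an auxin-induced enzyme that acts with GH3.5 and GH3.6 in adventitious rooting, was at 7.43 and 9.40 CPM with IAA, 7.16 and 9.68 CPM with MT, and 13.2 and 11.5 CPM in control. Again the treated libraries all lay below both controls. Its log2 fold change was -0.56 ± 0.18 for each treatment (SE), with edgeR adjusted p of 0.289 for IAA and 0.22 for MT. Without MT replicate 1 the value for MT was -0.35.

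The other GH3 genes did not share this order. GH3.17 (VAS2), which conjugates IAA mainly to glutamate, was at 45.4 and 42.2 CPM with IAA, 62.6 and 43.6 CPM with MT, and 51.8 and 51.2 CPM in control. It was lower than control in both IAA libraries, whereas the MT libraries lay on either side. MT replicate 1, which holds the highest value, is also the library with the most root marker and plastid counts, and their part in the value was not tested. GH3.2 was at 2.62 and 4.01 CPM with IAA, 4.04 and 2.52 CPM with MT, and 3.83 and 3.27 CPM in control, so the groups overlapped. GH3.1 was read so rarely that counts are given: 13 and 29 with IAA, 9 and 18 with MT, and 2 and 5 in control. Every treated library had more GH3.1 counts than either control, and the fitted log2 fold change was 2.51 ± 1.00 (SE, interval 0.24 to 4.78) for IAA and 2.1 ± 1.02 (-0.23 to 4.42) for MT, with edgeR adjusted p of 0.372 and 0.409. Without replicate 2 of the treated group it was 1.46 for IAA and 1.32 for MT. Summed over the 7 GH3 genes, the level was 266 and 256 CPM with IAA, 257 and 255 CPM with MT, and 361 and 293 CPM in control, a sum that GH3.6 and GH3.5 dominate.

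**Figure D3:**
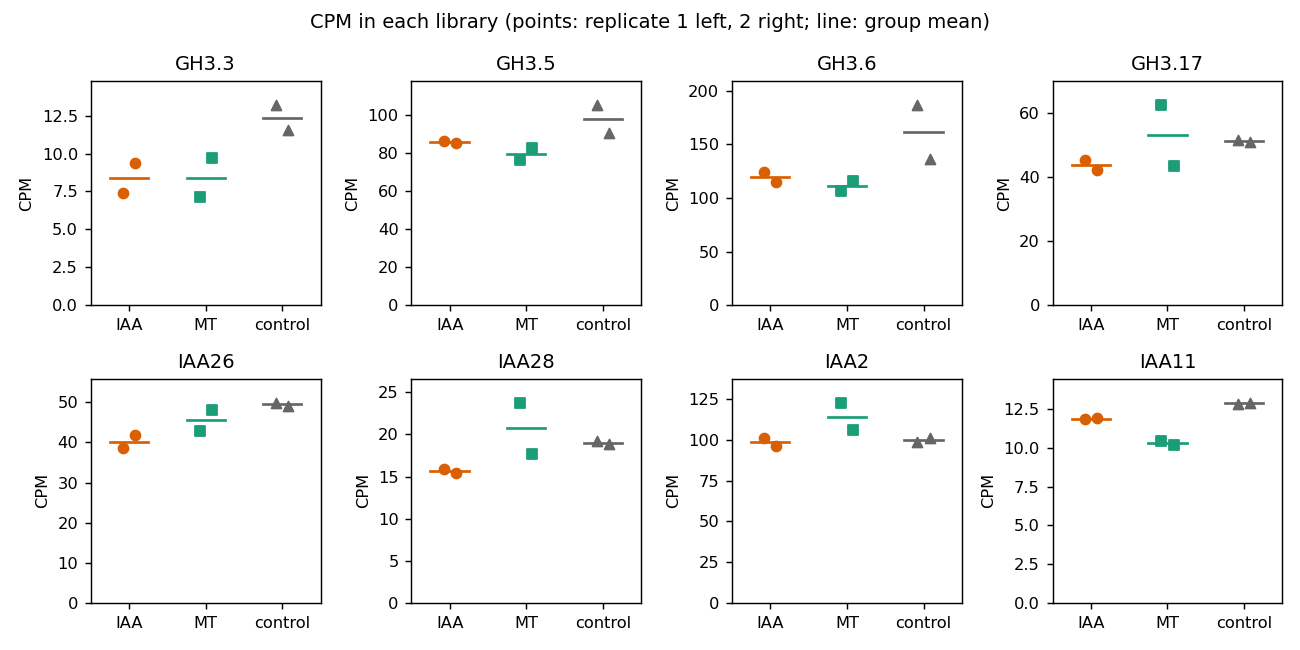
CPM of 8 genes in each library, from 0 on each vertical axis, with IAA, MT and control from left to right, replicate 1 as the left point and replicate 2 as the right point, and the group mean as a line. GH3.3, GH3.5 and GH3.6 are lower in all 4 treated libraries than in both controls, IAA26 and IAA28 are lowest with IAA, and GH3.17, IAA28 and IAA2 have their highest value in MT replicate 1.

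The rapidly auxin-induced clade, IAA1 to IAA6 and IAA19, showed no called gene with either treatment. Over all genes tested, 0.701% were called for IAA and 1.89% for MT, and 7 genes are too few for 0 calls to differ from these shares. IAA19 (MSG2, AT3G15540), a repressor of ARF7 in hypocotyl tropisms, was at 8.74 and 7.61 CPM with IAA, 9.001 and 6.81 CPM with MT, and 8.14 and 7.63 CPM in control. The groups overlapped fully, and the 95% interval of its log2 fold change was -0.32 to 0.43 for IAA and -0.37 to 0.38 for MT, which leaves out a change of 2-fold in either direction. IAA1 (AT4G14560) was at 32.1 and 25.4 CPM with IAA, 31.5 and 30.3 CPM with MT, and 30.8 and 30.1 CPM in control. IAA5 (AT1G15580), among the most strongly auxin-induced members, was at 2.17 and 2.51 CPM with IAA, 2.97 and 1.97 CPM with MT, and 1.88 and 1.85 CPM in control. IAA5 was thus higher in every treated library than in both controls, with intervals from -0.33 to 0.98 for IAA and -0.25 to 1.06 for MT. It shares 48 bases with the opposite-strand gene AT1G15570, which was at 16.0 and 21.3 CPM with IAA, 12.6 and 15.1 CPM with MT, and 11.9 and 11.9 CPM in control. The partner was likewise higher in every treated library, and without knowledge of strand use reads in the shared bases cannot be told apart.

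IAA2 and IAA4 were the other members of this clade among the lowest p-values. IAA2 was at 123 and 106 CPM with MT, 101 and 96.5 CPM with IAA, and 99.0 and 102 CPM in control, so both MT libraries were highest. Its log2 fold change was 0.19 ± 0.08 (SE) for MT against control and 0.21 ± 0.08 for MT against IAA (edgeR adjusted p = 0.348 and 0.416). Without MT replicate 1 these were 0.08 and 0.10. IAA4 was at 57.9 and 52.7 CPM with IAA, 62.0 and 51.4 CPM with MT, and 63.3 and 62.4 CPM in control and every treated library lay below both controls. For IAA the log2 fold change was -0.18 ± 0.09 (SE, edgeR adjusted p = 0.537). IAA6 had counts of 26 and 15 with IAA, 21 and 15 with MT, and 13 and 0 in control. IAA3 (SHY2), which limits root meristem size, lay between 19.6 and 25.8 CPM in all libraries and the groups overlapped; it shares 640 bases with the opposite-strand gene AT1G04230, at 12.9 to 13.7 CPM.

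The clade of IAA7 (AXR2), IAA14 (SLR), IAA16 and IAA17 (AXR3), known from dominant mutants with weak auxin response, had log2 fold changes of -0.25 to -0.04 for IAA and -0.25 to 0.11 for MT. IAA14, a repressor of lateral root initiation, was at 33.9 and 24.2 CPM with IAA, 28.3 and 25.6 CPM with MT, and 32.5 and 31.8 CPM in control. For MT against control its log2 fold change was -0.25 ± 0.14 (SE, edgeR adjusted p = 0.510), with both MT libraries below both controls. IAA16 was at 208 and 194 CPM with IAA, 217 and 206 CPM with MT, and 221 and 216 CPM in control. Its log2 fold change was -0.12 ± 0.06 for IAA (SE, adjusted p = 0.558 in edgeR), -0.18 without IAA replicate 1 and -0.076 without IAA replicate 2. IAA7 was at 198 and 164 CPM with MT, 176 and 140 CPM with IAA, and 203 and 171 CPM in control, and the MT and IAA libraries overlapped. IAA17 lay between 42.6 and 63.0 CPM, with its lowest and highest values in treated libraries. In the TAIR10.1 annotation 3 pairs of members, IAA1 with IAA14, IAA2 with IAA7 and IAA3 with IAA17, lie within 2 genes of each other.

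IAA8, IAA9 and IAA27 had log2 fold changes of -0.08 to 0.08 for IAA and -0.35 to 0.10 for MT, both against control. IAA9 was at 254 and 242 CPM with MT, 221 and 235 CPM with IAA, and 228 and 234 CPM in control, the MT libraries being highest by 0.12 ± 0.06 against IAA (log2, SE, edgeR adjusted p = 0.536), or 0.078 without IAA replicate 1. IAA8 was at 213 and 197 CPM with IAA, 200 and 187 CPM with MT, and 195 and 192 CPM in control. IAA27 (PAP2, AT4G29080), named for its binding to phytochrome, was at 11.97 and 12.5 CPM with MT, 12.7 and 16.9 CPM with IAA, and 14.4 and 16.8 CPM in control. Both MT libraries lay below all others, at a log2 fold change of -0.35 ± 0.15 against control and -0.27 ± 0.15 against IAA (SE, edgeR adjusted p = 0.361 and 0.558); without IAA replicate 2 the difference from IAA was -0.06, and without IAA replicate 1 it was -0.47. IAA27 shares 41 bases with the opposite-strand gene AT4G29070, at 56.2 to 64.3 CPM.

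In the clade of IAA10 to IAA13, IAA11 was the 1 gene with an unadjusted p under 0.05. IAA11 (AT4G28640) was at 11.9 and 11.9 CPM with IAA, 10.4 and 10.2 CPM with MT, and 12.9 and 12.9 CPM in control. Replicates were close and the 3 groups did not overlap, with MT lowest and control highest. The share of all genes with 3 separate groups was not counted, and 22.2% of all genes had both MT libraries below both controls. The log2 fold change was -0.32 ± 0.10 for MT against control (SE, interval -0.56 to -0.09, edgeR adjusted p = 0.217) and -0.21 ± 0.10 for MT against IAA (0.521). It shares 12 bases with the opposite-strand gene AT4G28650, at 14.9 to 18.7 CPM. IAA12 (BDL), the partner of ARF5 in forming the embryonic root, and IAA13 lay at 27.5 to 32.5 CPM and 33.4 to 38.8 CPM. IAA13 overlaps AT2G33300, which was at 0 to 0.15 CPM, for 1176 bases. IAA10 lay at 4.24 to 5.04 CPM, with every treated library below both controls.

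IAA18, IAA26 and IAA28 were lower with IAA than in control in every library, as were 20.2% of all genes tested. Only 1 of these 3, IAA26, had an edgeR unadjusted p under 0.05 in this comparison. IAA26 (PAP1, AT3G16500), also named for binding phytochrome, was at 38.6 and 41.8 CPM with IAA, 43.0 and 48.0 CPM with MT, and 49.9 and 49.1 CPM in control. It had the lowest p of all members for IAA, with a log2 fold change of -0.30 ± 0.08 (SE, interval -0.49 to -0.12, edgeR adjusted p = 0.203), and the MT libraries lay between the other groups, 0.18 ± 0.08 above IAA (adjusted p = 0.487) and 0.099 above it without MT replicate 2. IAA28 (AT5G25890), a repressor of lateral root formation that is known from roots, was at 23.8 and 17.7 CPM with MT, 15.9 and 15.5 CPM with IAA, and 19.2 and 18.8 CPM in control. The IAA libraries were lowest, at -0.28 ± 0.14 against control (log2, SE, edgeR adjusted p = 0.516). MT against IAA gave 0.40 ± 0.14 (interval 0.09 to 0.71, adjusted p = 0.372), the lowest p of any member in that comparison, and 0.17 without MT replicate 1. That library also had the highest root endodermis sum, 72.8 CPM, and its part in the IAA28 value was not tested. IAA18 lay at 28.02 and 27.8 CPM with IAA, 30.8 and 28.6 CPM with MT, and 30.6 and 30.8 CPM in control.

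The remaining Aux/IAA genes, IAA20, IAA29, IAA30 and IAA31, were low. IAA20, IAA30 and IAA31 are atypical, since their proteins lack the usual degron or have a degenerate one and are long-lived. IAA30 (AT3G62100) was at 1.14 and 1.57 CPM with IAA, 1.11 and 0.798 CPM with MT, and 0.690 and 0.969 CPM in control. Both IAA libraries lay above the other 4, on only 74 and 70 counts. The 95% interval for IAA against control was -0.21 to 1.61 on the log2 scale. IAA20 had counts of 12 and 6 with IAA, 2 and 12 with MT, and 16 and 4 in control. IAA31 had 17 and 0 with IAA, 21 and 0 with MT, and 10 and 2 in control. Most of its counts came from replicate 1 of each group. IAA29 (AT4G32280), which responds to shade through phytochrome-interacting factors, was at 5.32 and 4.68 CPM with IAA, 4.07 and 5.19 CPM with MT, and 6.42 and 3.69 CPM in control, where the controls spanned all other libraries.

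**Figure D4:**
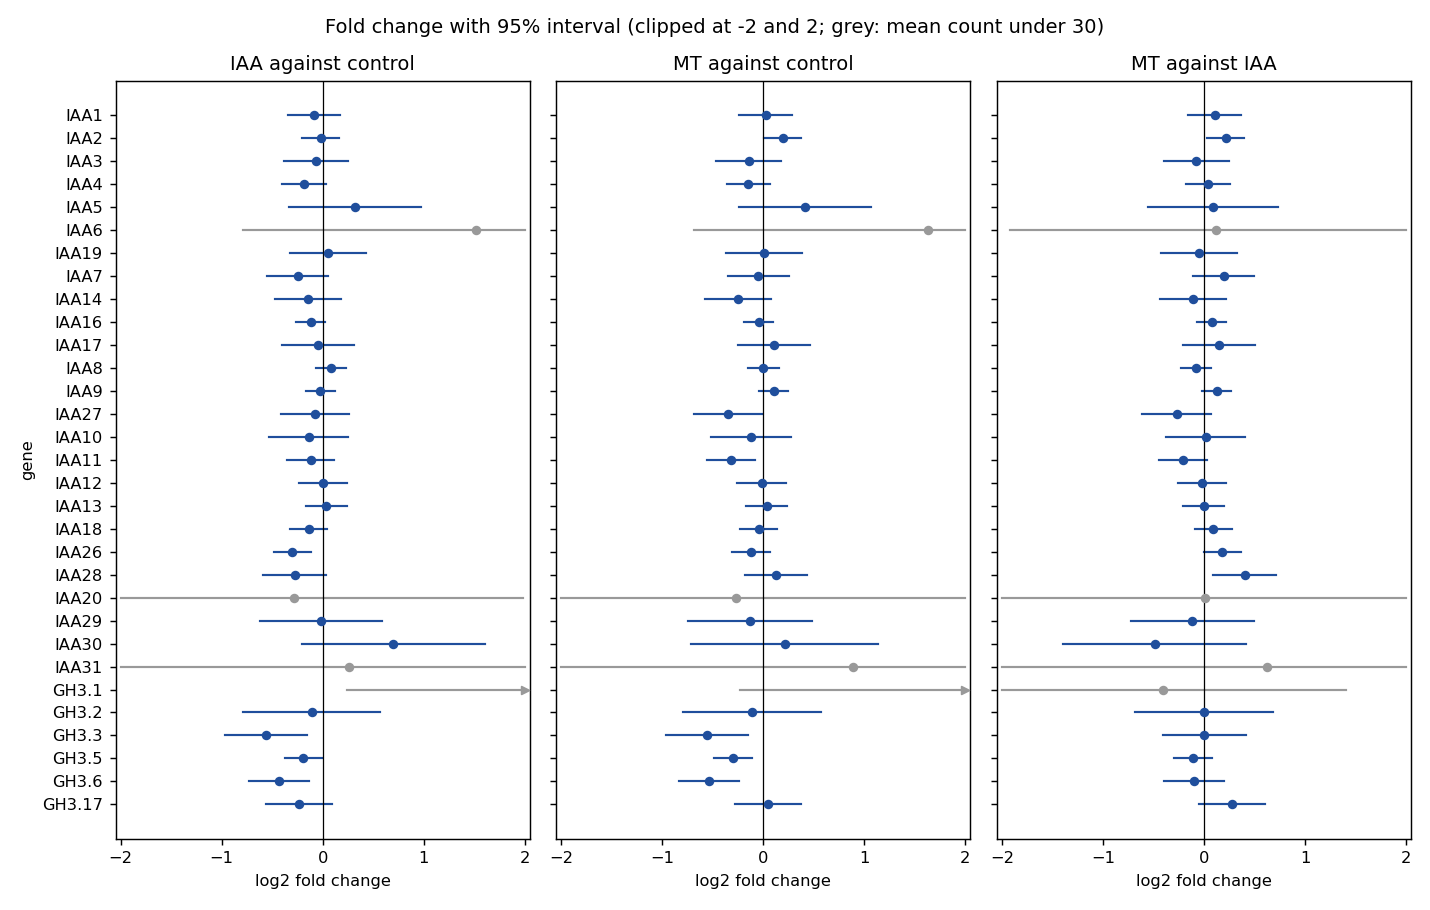
Log2 fold change (points) with 95% interval (lines) of the 31 tested genes for IAA against control, MT against control and MT against IAA, clipped at -2 and 2, with genes whose mean count was under 30 in grey. Whole intervals lie left of 0 for GH3.3, GH3.5 and GH3.6 in the first 2 panels, IAA26 in the first, and IAA11 and IAA27 in the second. They lie right of 0 for GH3.1 in the first panel, IAA2 in the last 2 and IAA28 in the last. None passed the threshold after adjustment.

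Across the 31 tested members, 9 fold changes were above 0 and 22 below for IAA against control, where 46.4% of all genes lay below 0, and the median was -0.08, against 0.01 over all genes. Both IAA libraries lay below both controls for 11 members and above them for 5, while 20.2% of all genes were lower and 23.6% higher in this sense (43.7% together). For MT against control 14 members were above 0 and 17 below, with 50.7% of all genes below, and the median was -0.05, against -0.003 over all genes. The groups did not overlap for 9 members lower and 6 higher with MT, where 22.2% and 22.5% of all genes did so (44.7% together). Both comparisons use the same 2 control libraries. MT against IAA does not, and there 17 members were above 0 and 14 below (51.6% of all genes below), with a median of 0.01; 5 were wholly higher and 4 wholly lower with MT (19.8% and 20.4% of all genes, 40.1% together). Doses of the 2 compounds differed, so this comparison is not at matched dose. For the 27 genes with a mean count of at least 30, the interval's median half-width was 0.30 on the log2 scale, and the bounds for IAA against control reached -0.97 and 1.61.

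Genes around this module in the auxin pathway were not called either. The lists were family relatives, receptors, ARFs, co-repressors, other auxin-induced genes, and genes of IAA oxidation and amide hydrolysis. In the 3 comparisons edgeR called 0 members of any list, and 0.701%, 1.89% and 0.0188% of all genes tested. Lists of 5 to 15 tested genes are too short for 0 calls to differ from these shares. Among family relatives, 5 of 8 were tested. GH3.9 (AT2G47750) was at 7.85 and 8.95 CPM with IAA, 6.17 and 6.61 CPM with MT, and 6.40 and 5.88 CPM in control, and had the lowest p of its list for IAA (log2 fold change 0.45, adjusted p = 0.298 in edgeR). Of the 8 receptor genes (TIR1, AFB1 to AFB5, and the SCF subunits ASK1 and CUL1), ASK1 was lowest in p for IAA, at 141 and 141 CPM against 158 and 158 CPM in control (-0.16, edgeR adjusted p = 0.432). TIR1, the main auxin receptor, was at 123 and 115 CPM with IAA, 115 and 114 CPM with MT, and 111 and 110 CPM in control.

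Of the 15 ARF genes, 9 were above 0 and 6 below for IAA, and 4 above and 11 below for MT, with medians of 0.01 and -0.08. Over all genes tested, 46.4% lay below 0 for IAA and 50.7% for MT. ARF8, an activating ARF known from flower development and adventitious rooting, was at 66.2 and 74.6 CPM with MT and 86.0 and 86.0 CPM in control (log2 fold change -0.29, adjusted p = 0.111 in edgeR's test), and DESeq2 called it. ARF4 was at 61.8 and 61.4 CPM with IAA and 71.2 and 69.0 CPM in control (-0.19, edgeR adjusted p = 0.327). All 5 TOPLESS genes had fold changes below 0 with both treatments, where 46.4% (IAA) and 50.7% (MT) of all genes did. The 2 comparisons share their control libraries and are not independent. Values ran from -0.11 to -0.02 for IAA and -0.21 to -0.06 for MT, and 0 were called. TPL itself was at 149 and 168 CPM with MT and 186 and 180 CPM in control. Of 10 other auxin-induced genes 8 were tested. SAUR15, a small auxin-up RNA of cell expansion, was at 3.52 and 2.66 CPM with IAA and 5.39 and 5.01 CPM in control (-0.75, edgeR adjusted p = 0.286). Of the 5 genes of IAA oxidation and amide hydrolysis, DAO2, an IAA oxidase, was at 25.3 and 13.7 CPM with MT. It was at 10.7 and 12.7 CPM in control (log2 fold change 0.74, edgeR adjusted p = 0.227).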

How the data were processed

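RNA was measured by RNA-seq in 6 libraries, grouped by sample title into IAA, MT and control, 2 each. Values are gene counts as deposited by the authors, whole and not normalized. HTSeq 0.6.1, TopHat2 2.0.12, DESeq and Bowtie2 2.2.3 are named, without their roles, in the submitters' processing notes. Build, annotation, library kit and strand use: not given in the sources used here. Of 27978 rows, 27416 carried locus codes, 562 were called newGene, and 26719 matched RefSeq's TAIR10.1 annotation, as did all 32 members. TAIR10.1 served for names, exon length, neighbours, overlaps and the printed promoters and their coordinates, which are independent of the counts.

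From the deposited counts, edgeR 4.0.16 (R 4.3.3) was run on the whole table, with filterByExpr by group (21267 genes kept, 6711 removed), TMM scaling, glmQLFit on all 6 libraries and glmQLFTest, Benjamini-Hochberg adjustment over all genes and a threshold of 0.05. The code was tested on simulated data. Levels are CPM by TMM-scaled library size, or CPM per kb of merged exons, and standard errors and 95% intervals come from the quasi-likelihood fit. Floors of 3 counts cover counting error only. Nothing in the labels says that replicates were separate cultures, and the spread behind each p-value may be technical, since it is only that between these samples. No 2 libraries were identical, and replicates differed by more than counting noise (chi-square per degree of freedom 14.5 for IAA, 18.2 for MT and 9.16 for control). The members and the other gene lists were chosen with earlier results of these data known. Per-library values are given for the 8 members with the lowest p in each comparison, the 3 highest and 3 lowest of each family, 10 fixed genes and the 1 gene that failed the filter. In the other lists the rule takes every called gene, or else the gene of lowest p, in at least 1 comparison, and TIR1 was added after its values were seen. Alternatives were RLE and upper-quartile factors, DESeq2 1.42.0, other filters, removal of organelle genes, fits of 2 groups, a replicate block, and leaving out each library.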

Additional observations from a re-analysis of the deposited data

How the results depend on the processing

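The count of members called stayed at 0 in all 3 comparisons and in the test among the 3 groups with RLE or upper-quartile factors, a filter at 5 CPM, organelle genes removed, or a replicate block, and in the 3 comparisons also with only the 2 groups compared. With DESeq2 it was 1 for IAA against control, 2 for MT against control and 1 among the 3 groups, and with no filter it was 1 for MT against control. Leaving out a library gave 0 to 1 member for IAA against control, for MT against control and among the 3 groups, the 1 being GH3.6 without control replicate 2; the cause was not tested. Over all genes the counts were 149, 403, 4 and 282 (IAA against control, MT against control, MT against IAA, any difference). DESeq2 gave 470, 823, 257 and 941, no filter gave 268 for IAA against control, 13 for MT against IAA and 543 among the groups, and fitting only 2 groups gave 81 for IAA against control. Leaving out a library gave 17 to 109, 112 to 447, 0 to 55 and 79 to 284. For IAA against control it was 17 without control replicate 1, 48 and 21 without IAA replicate 1 and 2, and 84 without MT replicate 2. For MT against control it was 112 without control replicate 1 and 172 without MT replicate 1. For MT against IAA it was 0 and 7 without IAA replicate 1 and 2, and 55 without MT replicate 2. Among the groups it was 79 and 167 without control replicate 1 and 2, and 130 without MT replicate 1. The median log2 fold change of members ran from -0.15 to -0.070 for IAA, -0.10 to 0.029 for MT (above 0 without control replicate 1 or MT replicate 2) and -0.011 to 0.099 for MT against IAA when a library was left out. Likewise IAA19 ran over -0.065 to 0.14, -0.21 to 0.18 and -0.27 to 0.14, and for MT against control it was -0.0062 with no filter and -0.0059 with the replicate block. GH3.17 for MT against IAA ran from -0.0097 (without MT replicate 1) to 0.51. Deviations of same-numbered libraries correlated at 0.01 (IAA and MT), 0.03 (IAA and control) and -0.15 (MT and control). No strong deviation was thus shared by number, which cannot show whether libraries were set up in pairs. The replicate block gave 137, 351, 5 and 255 genes. With the MT numbers crossed, an alternative chosen after seeing the data, 535 genes and 1 member were called for MT against control. Counts below about 30 leave IAA6, IAA20, IAA31 and GH3.1 without usable precision.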
